A study of Mus musculus with 6 samples.

Results

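The genes described here encode secreted signals of the TGFβ superfamily that alveolar type 2 (AT2) cells of the mouse lung could make themselves: the bone morphogenetic proteins *Bmp2*, *Bmp3*, *Bmp4*, *Bmp5*, *Bmp6* and *Bmp7*, the activin subunits *Inhba* and *Inhbb*, and *Gdf15*. They were taken by symbol from the deposited count table, where 9 of 9 symbols were found among 24421 genes. The libraries are poly(A) RNA-seq of lineage-labeled AT2 cells sorted from 3 control mice (AT2CTRL) and 3 mice with a constitutively active BMP receptor (AT2CAB). AT2CTRL mice carried Sftpc-CreERT2/+ with R26-tdTomato/+, and AT2CAB mice carried Sftpc-CreERT2/+ with R26-tdTomato on one R26 allele and R26-caBmpr1a on the other. In each group 2 mice were 12 weeks old and 1 was 16 weeks old (AT2CTRL replicate 2 and AT2CAB replicate 1). Both genotypes thus carry the tamoxifen-dependent Cre, driven by the gene of the AT2 protein surfactant protein C, and the red label it switches on. A cell can recombine the label without the receptor allele, so a sorted AT2CAB library may hold some cells without the active receptor. The question asked of each ligand is how much of its RNA the sorted cells held, and whether that amount differed when BMPR1a signaling was permanently on.

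BMPs, activins and GDF15 are made as precursors, cut by furin-like proteases and secreted as dimers. BMPs bring together type I receptors such as BMPR1a and type II receptors such as BMPR2, and the SMAD proteins that these phosphorylate turn on target genes such as *Id1*, *Id3* and the inhibitory *Smad6*, while extracellular antagonists such as Noggin and Gremlin hold ligand away from its receptors. AT2 cells make surfactant and give rise to the flat AT1 cells of the alveolus, and BMP ligands are made by several cell types around them.

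AT2 identity was checked on 10 markers, of which *Sftpc*, surfactant protein C, had between 42700 and 60123 CPM (counts in 1000000, scaled with edgeR's TMM method), and none of the 10 was at 0 in any library. Endothelial, mesenchymal and leukocyte markers were also present, with 12 genes in each list, none at 0 in any library. Their summed levels were 353 to 738, 209 to 317 and 94.5 to 97.2 CPM in AT2CTRL, and 648 to 1060, 382 to 487 and 117 to 185 CPM in AT2CAB. AT2 markers summed to between 117532 and 132649 CPM in AT2CTRL and between 100315 and 112240 CPM in AT2CAB. The AT1 list summed to 2392 to 3366 CPM in AT2CTRL and 2778 to 3280 CPM in AT2CAB. Of its 10 genes, 8 had log2 fold changes above 0 and 2 below, with a median of 0.33. The airway list summed to 723 to 916 CPM in AT2CTRL and 840 to 1220 CPM in AT2CAB. Of its 7 tested genes, 4 were above 0 and 3 below, with a median of 0.17. Only *Tppp3* was called higher (log2 fold change 1.85, edgeR adjusted p = 0.0165). It had 92.3, 93.3 and 103.8 CPM in AT2CTRL and 243, 363 and 439 CPM in AT2CAB. The mesenchymal, leukocyte and AT2 sums did not overlap between the groups, the endothelial, AT1 and airway sums did, and the part of these cells in the ligand differences was not tested. As RNA was taken from bulk cells, fewer cells of a type and less RNA per cell cannot be told apart. The 2 libraries AT2CTRL replicate 1 and AT2CAB replicate 3 had reads on 4 Y-linked genes (*Eif2s3y*, *Kdm5d*, *Uty* and *Ddx3y*) and the other 4 libraries had none, while the labels give no sex, so ligand results are also given with these reads as a covariate and within the 4 libraries. Library totals were between 21554249 and 28440227 counts, and 3 counts, taken as the smallest amount that can be seen, were between 0.0976 and 0.138 CPM. *Bmpr1a* itself, the receptor whose active form was expressed, had 105, 130 and 125 CPM in AT2CTRL and 131, 128 and 96.8 CPM in AT2CAB, so its row did not separate the genotypes. Whether the active receptor's own transcript adds to that row is not given in the sources used here. The BMP targets in the same libraries did separate them, as described further on.

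RNA of all 9 ligands was found in all 6 libraries and all 9 passed the filter on low counts. *Bmp4* was the most abundant for its length, *Bmp7* the least, above 7.36% of the genes tested in AT2CTRL, and *Inhba* stood above 24.6% of them. None of the 9 passed the thresholds used for a call, which were 0.05 for edgeR's adjusted p and 1 for the size of the log2 fold change. Over all 16723 genes tested, 0.227% were called higher and 0.0120% lower in AT2CAB. DESeq2, which called 1.05% of the genes with an adjusted p in either direction, called 0 of the 7 ligands to which it gave an adjusted p. The log2 fold change was below 0 for 6 ligands and above 0 for 3, against 51.2% of all tested genes below 0, and its median was -0.52 over the ligands and -0.0096 over all tested genes. An unadjusted p under 0.05 was reached by 3 ligands, *Bmp2*, *Bmp3* and *Bmp4*, each with the lower mean in AT2CAB, where 5.05% of all tested genes had this result in that direction and 4.62% in the other.

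**Figure D1:**
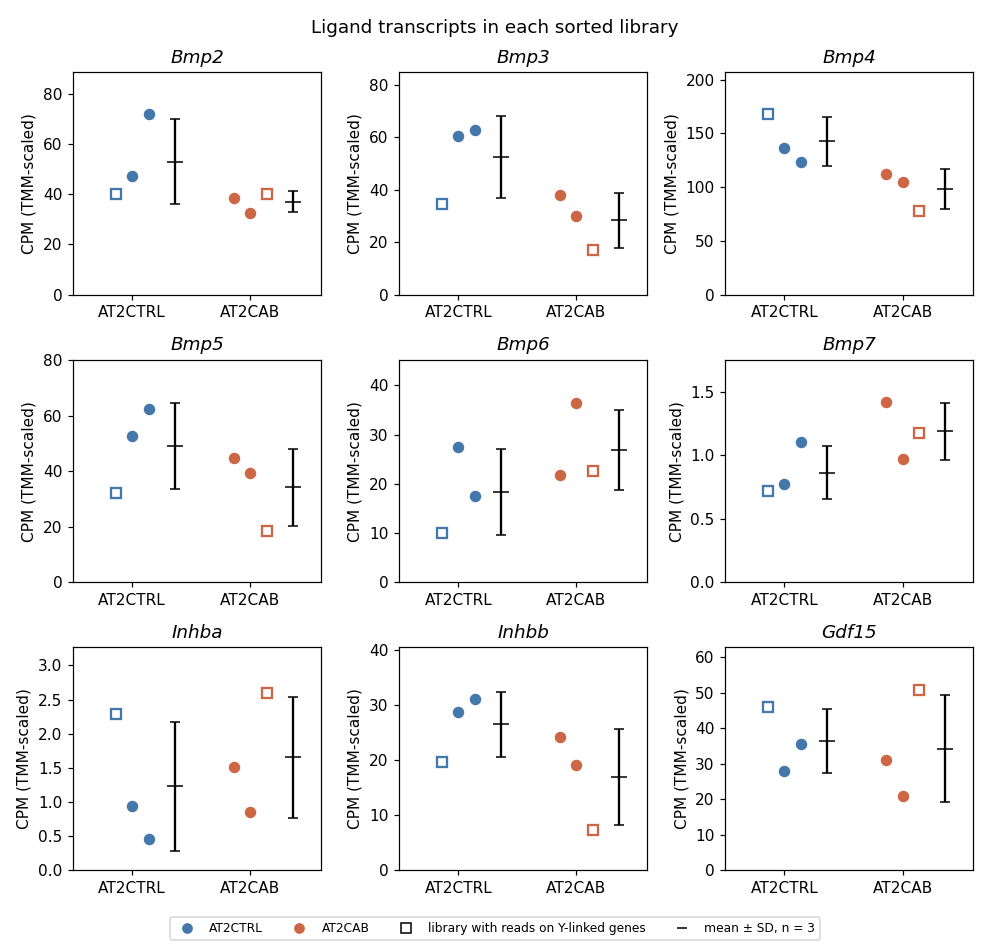
Level of each ligand in each library, in TMM-scaled CPM on an axis from 0. Circles and open squares are single libraries, open squares the 2 libraries with reads on Y-linked genes, and bars are the mean ± SD of 3 libraries. In *Bmp4* the 3 AT2CAB points lie below the 3 AT2CTRL points, and in the other 8 panels the groups overlap.

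*Bmp2* and *Bmp4* encode close relatives that bind BMPR1a directly. In mm10 coordinates *Bmp4* occupies bases 46383520 to 46390599 of chromosome 14, minus strand, with 4 exon blocks of 1994 bases in all. Of these bases, 87 overlap the plus-strand gene *Gm15217*, where the counting left reads out. *Gm15217* had between 38 and 73 counts in each library, against at least 2382 for *Bmp4*. The 250 bases of mouse sequence before the RefSeq start of *Bmp4* (GRCm38.p6, chr14:46390670-46390919, minus strand, 70 bases upstream of the start in the table) are shown with those before *Bmp6* (chr13:38345466-38345715, plus strand), since *Bmp4* was the ligand whose groups were apart and *Bmp6* had the largest difference in the other direction. Both are from the RefSeq promoter table, written from 5′ to 3′ in the direction of the gene, with the SMAD-binding tetramer GTCT or its reverse complement AGAC in capitals.
Bmp4: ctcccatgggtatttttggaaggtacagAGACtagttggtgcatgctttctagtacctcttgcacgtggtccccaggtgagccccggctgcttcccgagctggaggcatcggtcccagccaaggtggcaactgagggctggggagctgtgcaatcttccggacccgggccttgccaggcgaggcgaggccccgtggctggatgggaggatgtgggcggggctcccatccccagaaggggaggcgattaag
Bmp6: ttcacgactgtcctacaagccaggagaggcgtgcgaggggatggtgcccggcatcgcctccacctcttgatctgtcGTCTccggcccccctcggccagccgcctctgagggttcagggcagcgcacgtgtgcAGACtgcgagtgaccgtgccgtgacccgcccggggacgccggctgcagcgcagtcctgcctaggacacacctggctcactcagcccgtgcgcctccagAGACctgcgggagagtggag
The *Bmp4* window held 1 such tetramer and the *Bmp6* window 3, and 82.9% of all 32851 promoter windows of 250 bases held at least 1. The windows of *Bmp5* and *Inhba* held 1 each and that of *Inhbb* 2. *Gdf15*, with a window at each of its starts, held 4 and 2. Whether these numbers bear on the direction of a ligand was not tested. GGCGCC, a GC-rich motif bound by SMADs in BMP targets (it reads the same on both strands), was in 0 of the 7 windows found for 6 of the ligands, *Bmp4*, *Bmp5*, *Bmp6*, *Inhba*, *Inhbb* and *Gdf15*, and in 9.6% of all windows. The *Bmp4* window was 63.2% G or C with 11 CpG dinucleotides, and the *Bmp6* window 68.8% with 22.

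*Bmp4* had 168.1, 136.3 and 123.6 CPM in AT2CTRL replicates 1, 2 and 3. In AT2CAB replicates 1, 2 and 3 it had 112.5, 104.7 and 77.5 CPM. The lowest control library was thus above the highest AT2CAB library, which was true of 10.1% of all tested genes. The means were 142.7 ± 22.9 and 98.3 ± 18.4 CPM (SD, n = 3), a log2 fold change of -0.54 with a standard error of 0.17 (adjusted p = 0.387, edgeR's quasi-likelihood test). The exact two-sided permutation test of the 6 values gave p = 0.1, the smallest that 3 against 3 allow. The difference was larger between the 2 libraries with Y-linked reads, which gave a log2 ratio of -1.12, than among the other 4, where the log2 fold change was -0.23 (edgeR adjusted p = 0.311). The test of that difference in the fit across all genes gave a log2 difference of -0.86 (edgeR adjusted p = 0.0953), which missed the threshold. With Y-linked reads as a covariate the adjusted p was 0.127. AT2 markers were on the same side as *Bmp4*: 9 of the 10 had log2 fold changes below 0, with a median of -0.30, and for 5 of the 10 all AT2CAB values were below all AT2CTRL values. Divided by the summed AT2 markers, a ratio chosen after the values were seen, *Bmp4* had its 3 AT2CAB values below its 3 AT2CTRL values. The same held after division by each of the other marker lists. The highest ratio to AT2 markers was 1.64 times the lowest, against 2.17 times before division. Counted from the smallest, this spread had rank 3 among the 54 pairs of a ligand and a marker list. Division by AT2 markers also narrowed the spread of *Bmp3*, from 3.69 to 3.15 times, and those of *Bmp2*, *Bmp5* and *Inhbb*. The groups of these ligands overlapped after division. It widened the spread of *Bmp6*, *Bmp7*, *Inhba* and *Gdf15*. The part of AT2 content in the difference of *Bmp4* or any other ligand was not tested.

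*Bmp2*, on chromosome 2 from 133552159 to 133562896, had 40.0, 47.1 and 72.0 CPM in AT2CTRL and 38.6, 32.5 and 40.1 CPM in AT2CAB. One AT2CTRL library stood far above the rest and the groups overlapped by a narrow margin, between 40.0 and 40.1 CPM. Its means were 53.0 ± 16.8 and 37.1 ± 4.04 CPM (SD, n = 3), with a log2 fold change of -0.52 (standard error 0.21, edgeR adjusted p = 0.494). Among the 4 libraries without Y-linked reads it was -0.71 (edgeR adjusted p = 0.165), and between the other 2 the log2 ratio was 0.0050. Without AT2CTRL replicate 3, the highest library, the log2 fold change was -0.23.

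*Bmp5*, *Bmp6* and *Bmp7* form another subgroup of BMPs, which can also use the type I receptor ACVR1. *Bmp5*, on chromosome 9 from 75775365 to 75899017, had 32.1, 52.8 and 62.3 CPM in AT2CTRL and 44.7, 39.4 and 18.6 CPM in AT2CAB. The library with Y-linked reads was the lowest of each group. The groups overlapped, with means of 49.0 ± 15.5 and 34.2 ± 13.8 CPM (SD, n = 3) and a log2 fold change of -0.52 (standard error 0.34, edgeR adjusted p = 0.650). With Y-linked reads as a covariate the log2 fold change was -0.56 with a standard error of 0.12, and the edgeR adjusted p was 0.0449, which passed the p threshold but not the fold threshold. That fit put 1.26% of all tested genes under an adjusted p of 0.05 with the lower level in AT2CAB. Among the 4 libraries alone the value was -0.42 (edgeR adjusted p = 0.164), and without AT2CAB replicate 3 it was -0.19. In the GENCODE M21 annotation 585 of its 2528 exon bases overlap *Gm26903* on the other strand, and as strand was not used in the counting, reads of the pair cannot be told apart there.

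*Bmp6* was the ligand with the highest log2 fold change. It lies on chromosome 13 from 38345716 to 38499728 and is known from liver endothelium, where it controls iron through hepcidin. It had 10.04, 27.5 and 17.5 CPM in AT2CTRL and 21.7, 36.3 and 22.7 CPM in AT2CAB. The groups overlapped, AT2CTRL replicate 2 being above 2 of the AT2CAB libraries. The means were 18.3 ± 8.75 and 26.9 ± 8.17 CPM (SD, n = 3), with a log2 fold change of 0.55 (standard error 0.35, edgeR adjusted p = 0.646). In the 12-week-old mice alone it was 1.09 (edgeR adjusted p = 0.547), the pair of 16-week-old mice, 1 library of each group, had a log2 ratio of -0.34, and with age as a covariate it was 0.62. This difference between the ages did not pass its own test over all genes (edgeR adjusted p = 1.00). Markers of other cell types were on the same side as *Bmp6*. All 12 endothelial markers had log2 fold changes above 0, with a median of 0.61. An unadjusted p under 0.05 was reached by 7 of them, against 4.62% of all tested genes in this direction. All 12 mesenchymal markers (median 0.54) and 11 of 12 leukocyte markers (median 0.75) were above 0 too. Per 100 CPM of the summed endothelial markers, *Bmp6* had 2.85, 3.72 and 3.50 CPM in AT2CTRL and 3.35, 3.43 and 3.07 CPM in AT2CAB. The highest of these 6 ratios was 1.31 times the lowest, against 3.62 times for *Bmp6* itself, and the group means were 3.35 ± 0.46 and 3.29 ± 0.19 (SD, n = 3). This ratio was chosen after the values were seen and had the smallest such spread of the 54 pairs of a ligand and a marker list. The part of endothelial or other cells in the *Bmp6* difference was not tested. Per 100 CPM of mesenchymal markers the means of *Bmp6* were 6.53 ± 1.96 and 6.08 ± 1.23 (SD, n = 3). Per 100 CPM of leukocyte markers they were 19.3 ± 9.40 and 19.4 ± 7.56 (SD, n = 3). The highest library was at 1.81 and 2.81 times the lowest for these 2 lists. For airway, AT1 and AT2 markers it was at 2.54, 3.71 and 4.63 times the lowest.

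**Figure D2:**
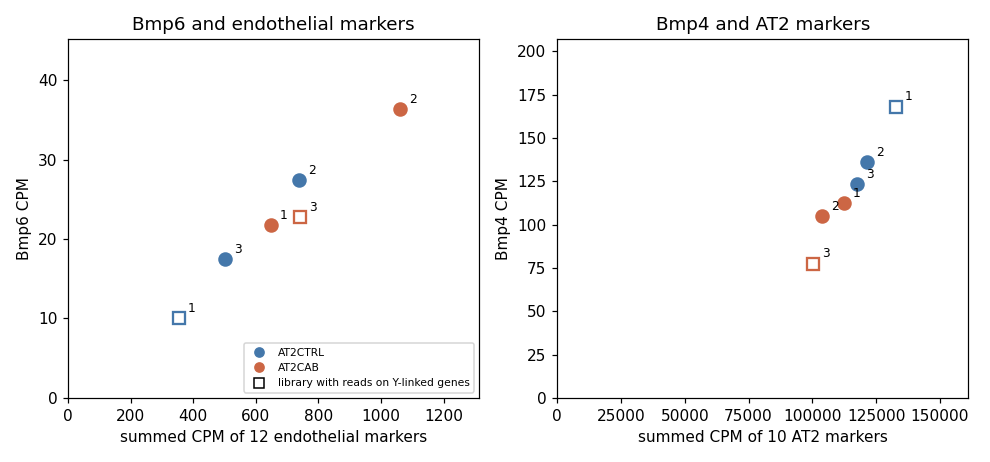
*Bmp6* CPM against the summed CPM of 12 endothelial markers (left) and *Bmp4* CPM against the summed CPM of 10 AT2 markers (right), 1 point per library with its replicate number, all axes from 0. The library with 10.04 CPM of *Bmp6* has the lowest endothelial sum and that with 36.3 CPM the highest, and the 3 AT2CAB libraries have the lowest values on both axes of the right panel. Both pairs were chosen after the values were seen, and the left pair had the smallest spread of ratios among 54 pairs. Whether the ligand values follow from cell content was not tested.

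*Bmp7*, on chromosome 2 from 172868012 to 172940321, had 16, 18 and 29 counts in AT2CTRL and 31, 25 and 36 counts in AT2CAB. These were 0.717, 0.772 and 1.10 CPM against 1.42, 0.970 and 1.17 CPM. The groups overlapped and the log2 fold change was 0.45 (standard error 0.47, edgeR adjusted p = 0.787).

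*Bmp3* encodes a BMP that acts against its osteogenic relatives, and it had the largest difference in size among the ligands. It lies on chromosome 5 from 98854439 to 98880960. Its levels were 34.6, 60.4 and 62.6 CPM in AT2CTRL and 37.9, 30.0 and 16.96 CPM in AT2CAB. As for *Bmp5*, the library with Y-linked reads was the lowest of each group, and that AT2CTRL library was below the highest AT2CAB library, so the groups overlapped. The means were 52.5 ± 15.6 and 28.3 ± 10.6 CPM (SD, n = 3), with a log2 fold change of -0.90 (standard error 0.31, edgeR adjusted p = 0.420). With Y-linked reads as a covariate the log2 fold change was -0.91, its standard error 0.11 and its edgeR adjusted p 0.00651. Among the 4 libraries without such reads it was -0.83 (edgeR adjusted p = 0.0334), a result that 0.245% of the genes tested there had in this direction. The 2 libraries with Y-linked reads gave a log2 ratio of -1.03, and the 12-week-old mice a log2 fold change of -1.06 (edgeR adjusted p = 0.641). *Bmp3* was thus lower in AT2CAB within both sets, but its fold change stayed under the call threshold in the fit of 6 libraries and in both fits that passed on p.

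**Figure D3:**
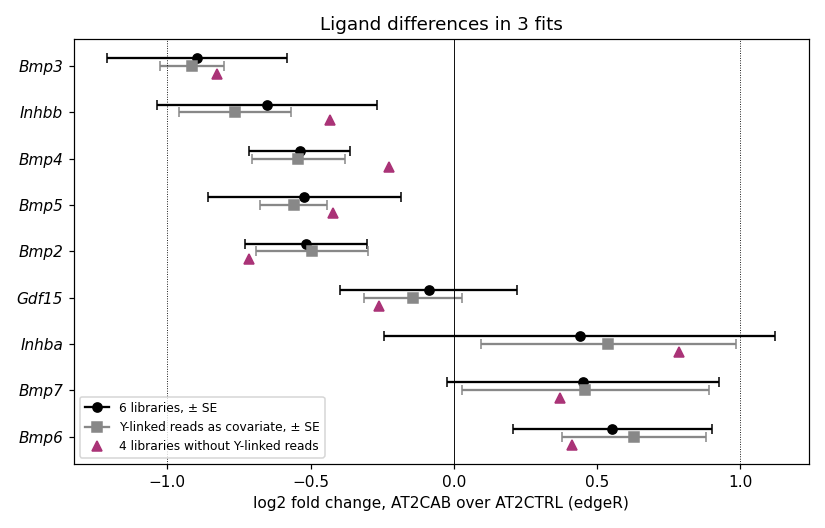
Log2 fold change (AT2CAB over AT2CTRL) of each ligand from edgeR, for all 6 libraries (black circles, ± standard error), with Y-linked reads as a covariate (grey squares, ± standard error) and in the 4 libraries without such reads (triangles). The dotted lines mark 1 and -1, the thresholds on the fold change. *Bmp3* keeps nearly the same value in the 3 fits, at -0.90, -0.91 and -0.83, with a smaller error under the covariate, and *Bmp4* is at -0.54, -0.54 and -0.23.

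*Inhba* and *Inhbb* encode the β chains of activin A and activin B, which bind ACVR2A and ACVR2B and signal through another pair of SMADs than BMPs do. *Inhbb*, on chromosome 1 from 119415465 to 119422248, had the higher mean per exon length of the pair in both groups, though in AT2CAB replicate 3 it had 1.73 RPKM and *Inhba* 1.70 RPKM. Its levels were 19.7, 28.7 and 31.1 CPM in AT2CTRL and 24.3, 19.2 and 7.36 CPM in AT2CAB. AT2CAB replicate 3 stood below all the others, and the remaining libraries overlapped, with a log2 fold change of -0.25 without it. The log2 fold change was -0.65 (standard error 0.38, edgeR adjusted p = 0.623), and -0.76 (edgeR adjusted p = 0.0849) with Y-linked reads as a covariate. It was -0.43 (edgeR adjusted p = 0.232) in the 4 libraries, where the other pair gave a log2 ratio of -1.42, and the test of that difference did not pass over all genes (edgeR adjusted p = 0.172). *Inhba*, on chromosome 13 from 16014475 to 16027211, had 51, 22 and 12 counts in AT2CTRL and 33, 22 and 80 counts in AT2CAB, or between 0.457 and 2.60 CPM. Its highest values in both groups were in the libraries with Y-linked reads. The log2 fold change of 0.44 (standard error 0.68, edgeR adjusted p = 0.864) moved with single libraries: it was -0.0055 without AT2CAB replicate 3, 0.039 without AT2CTRL replicate 3 and 1.24 without AT2CTRL replicate 1.

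*Gdf15*, on chromosome 8 from 70629394 to 70631635, encodes a distant relative that many cells make under stress and that acts through the brainstem receptor GFRAL. Its levels were 45.8, 27.8 and 35.6 CPM in AT2CTRL and 30.9, 21.03 and 50.7 CPM in AT2CAB. The AT2CAB range enclosed the AT2CTRL range, and the library with Y-linked reads was the highest of each. The log2 fold change was -0.088 (standard error 0.31, edgeR adjusted p = 0.940), with a sign that turned to 0.048 when only library size was used for scaling. Of 15 genes known to be induced in the same stress responses, such as those of the ATF and p53 pathways, 0 were called. Their median log2 fold change was -0.057 and 9 of the 15 were below 0.

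Libraries with Y-linked reads were the lowest of both groups for 3 of the 9 ligands (*Bmp3*, *Bmp5* and *Inhbb*) and the highest of both groups for 2 (*Inhba* and *Gdf15*). Among all tested genes these shares were 23.8% and 26.6%. AT2CAB replicate 3 was the lowest AT2CAB library for 4 ligands, *Bmp3*, *Bmp4*, *Bmp5* and *Inhbb*, as it was for 41.3% of tested genes.

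Levels were compared between ligands as RPKM (CPM divided by exon length in kilobases), which takes gene length into account. In AT2CTRL, *Bmp4* had 71.6 RPKM, with single libraries from 62.0 to 84.3, and stood above 94.9% of tested genes. *Gdf15* followed at 33.6 RPKM (25.7 to 42.3). Below these came *Bmp5* at 19.4, *Bmp3* at 16.9 and *Bmp2* at 14.9 RPKM. *Bmp6* at 7.61 and *Inhbb* at 6.23 RPKM were lower, and the last were *Inhba* at 0.804 and *Bmp7* at 0.236 RPKM. Of the 8 steps between neighbours in this order, 3 separated libraries without overlap, namely *Bmp4* from *Gdf15*, *Gdf15* from *Bmp5* and *Inhbb* from *Inhba*. From *Bmp5* down to *Inhbb* each ligand overlapped the next, and so did *Inhba* and *Bmp7*.

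In AT2CAB, *Bmp4* was again first at 49.3 RPKM (38.9 to 56.4), but its range met that of *Gdf15*, at 31.6 RPKM (19.4 to 46.7). *Bmp6*, at 11.2 RPKM, moved up in the order, after *Bmp5* at 13.5 and ahead of *Bmp2* at 10.4 and *Bmp3* at 9.09 RPKM, each of these 4 overlapping the next in the order. Then came *Inhbb* at 3.98, *Inhba* at 1.08 and *Bmp7* at 0.324 RPKM. Here the 3 steps without overlap were *Gdf15* to *Bmp5*, *Inhbb* to *Inhba* and *Inhba* to *Bmp7*.

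**Figure D4:**
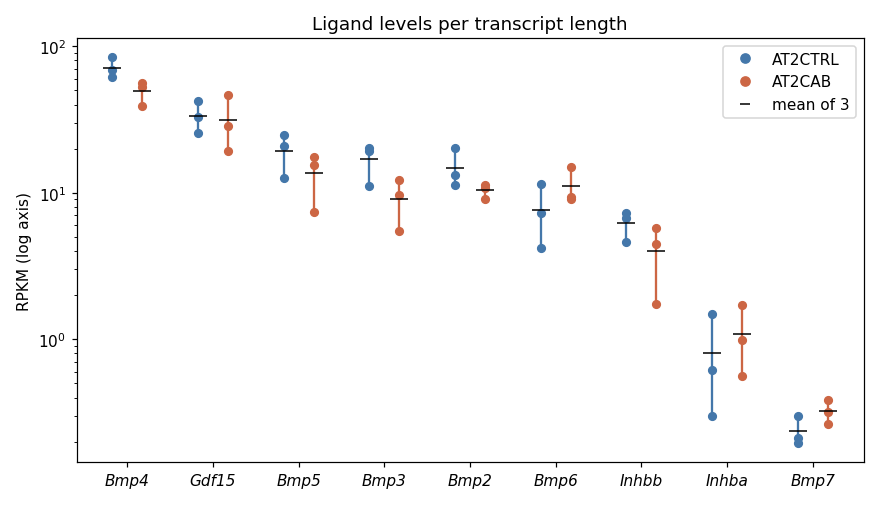
Level of each ligand per exon length, in RPKM on a log axis, ordered by the AT2CTRL mean. Points are single libraries, lines their range and dashes the mean of 3. *Bmp4* is the highest in both groups, at 71.6 and 49.3 RPKM, and *Bmp7* the lowest, at 0.236 and 0.324 RPKM.

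Added together per length, the 6 BMPs came to 123.7, 133.4 and 134.5 RPKM in AT2CTRL and 106.5, 102.2 and 72.7 RPKM in AT2CAB. All AT2CAB sums were below all AT2CTRL sums, and the sums of the AT2 markers were apart in the same direction. *Bmp4*, whose own groups were apart, made up 55.2% ± 11.6 of the BMP sum in AT2CTRL and 52.6% ± 1.10 in AT2CAB (SD, n = 3). *Bmp6* and *Bmp7* had the higher means in AT2CAB. For the 9 ligands the sums were 172.1, 166.5 and 175.0 RPKM in AT2CTRL and 141.8, 126.7 and 122.9 RPKM in AT2CAB, or 171.2 ± 4.33 and 130.4 ± 9.99 RPKM (SD, n = 3). These sums are descriptions with no test. The share of *Bmp4* in the 9-ligand sum was 41.8% ± 6.81 in AT2CTRL and 37.6% ± 5.26 in AT2CAB (SD, n = 3), and in AT2CAB replicate 3 it was 31.6%, below the 38.0% of *Gdf15*. *Bmp6* made up 5.77% ± 2.61 of the BMP sum in AT2CTRL and 12.1% ± 3.24 in AT2CAB, with a narrow overlap at 8.54% and 8.47% (SD, n = 3). *Gdf15* took from 15.4% to 24.6% of the 9-ligand sum in AT2CTRL and from 15.3% to 38.0% in AT2CAB. In both sums *Bmp7* was the only ligand whose shares did not overlap between the groups. It made up 0.180% ± 0.038 of the BMP sum in AT2CTRL and 0.354% ± 0.091 in AT2CAB (SD, n = 3). These shares rest on 16 to 36 counts in a library.

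The genes whose log2 CPM followed the 3 ligands of highest mean RPKM most closely over the 6 libraries were found among 9231 genes with at least 10 CPM on average. For *Bmp4* they were *Cab39l* (Pearson's r = 0.995), *Dtnbp1* (0.994) and *Ccdc71* (0.994), out of 179 genes with r over 0.95. *Bmp5* was followed by *Fto*, *Gga2* and *Paqr8*, each at 0.998, out of 444 such genes. *Gdf15* had only 18 such genes, with *Tob1* (0.995), an antiproliferative protein, *Tgif1* (0.982), a repressor acting with SMADs, and *Arrdc2* (0.980) in front. These values describe 6 points that share library, genotype and cell composition, and so many genes near 1 are found with 6 points that they single out no partner.

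The other parts of the pathway were counted from lists chosen by role, with earlier results of these data known. The 6 lists held 91 different genes, of which 73 could be tested. Among these 73, 7 were called higher and 0 lower in AT2CAB (0.227% and 0.0120% of all tested genes). Of 24 other superfamily ligands 12 could be tested and 1 was called. This was *Tgfb1*, which encodes TGFβ1, a ligand with a receptor pair of its own. It had 44.7, 44.5 and 43.6 CPM in AT2CTRL and 83.9, 90.0 and 109.6 CPM in AT2CAB, so that the groups were far apart. Its log2 fold change was 1.10 (standard error 0.13, edgeR adjusted p = 0.0172). Leukocyte markers, whose sum was also higher in each AT2CAB library than in any AT2CTRL library, had a median log2 fold change of 0.75 and 11 of 12 above 0, and their part in this result was not tested.

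Receptors and co-receptors showed no calls among 18 tested of 20, with a median log2 fold change of 0.17. The BMP type I receptors had log2 fold changes of -0.015 for *Bmpr1a* (edgeR adjusted p = 0.983), -0.26 for *Bmpr1b*, which had only 14 to 24 counts, and -0.14 for *Acvr1*. The type II receptors *Bmpr2*, *Acvr2a* and *Acvr2b* had 0.21, -0.047 and 0.20, with edgeR adjusted p-values of 0.847, 0.923 and 0.745. *Acvr2b* had 5.65 to 6.85 CPM in AT2CTRL and 6.93 to 7.66 CPM in AT2CAB. Its groups were thus apart, as were those of 1171 of the 16723 tested genes in this direction. *Bmpr2* varied most between libraries of one group, from 88.7 to 167 CPM in AT2CTRL and from 116 to 215 CPM in AT2CAB.

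Among 22 extracellular antagonists, 19 were tested and 1 was called. *Wfikkn2*, whose product binds myostatin and GDF11, had 2.06, 0.943 and 1.33 CPM in AT2CTRL and 8.80, 12.6 and 14.3 CPM in AT2CAB. This was a log2 fold change of 3.05 (standard error 0.33, edgeR adjusted p = 0.0147). Follistatin and 2 follistatin-like genes, whose products bind activins or BMPs, were not called. *Fst*, *Fstl1* and *Fstl3* had log2 fold changes of 0.36, 0.57 and 0.18, and edgeR adjusted p-values of 0.890, 0.416 and 0.861. *Nog*, the gene of Noggin, had 4, 0 and 2 counts in AT2CTRL and 10, 1 and 42 counts in AT2CAB. *Grem1*, the gene of Gremlin, had 2, 8 and 2 counts in AT2CTRL and 11, 6 and 24 counts in AT2CAB, and both genes were too low for the test. Of the 7 proteases that process the ligands 0 were called, with a median log2 fold change of 0.23.

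Downstream of the receptors the picture was different. All 11 tested BMP targets (of 12), a list chosen with earlier results of these data known, had log2 fold changes above 0. An unadjusted p under 0.05 was reached by 8, against 4.62% of all tested genes in this direction. The 5 called were *Id1*, *Id3*, *Smad6*, *Smad9* and *Atoh8*, where 0.227% of all tested genes were called higher. *Id1*, a blocker of basic helix-loop-helix factors, had 18.5, 20.8 and 19.2 CPM in AT2CTRL and 124, 177 and 411 CPM in AT2CAB. Its log2 fold change was 3.61 (edgeR adjusted p = 0.0172), and that of *Smad6* was 1.27 (edgeR adjusted p = 0.0431). *Id3*, of the same family as *Id1*, had a log2 fold change of 4.58, the transcription factor gene *Atoh8* 4.10 and *Smad9*, which encodes a SMAD of the BMP branch, 3.37 (edgeR adjusted p = 0.00758, 0.00289 and 0.00289). *Smad6* and *Smad9* were also the called genes among the 10 SMADs and SMAD ligases, whose median was 0.0062. The median over the targets was 1.33, against -0.52 over the 9 ligands in the same 6 libraries.

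**Figure D5:**
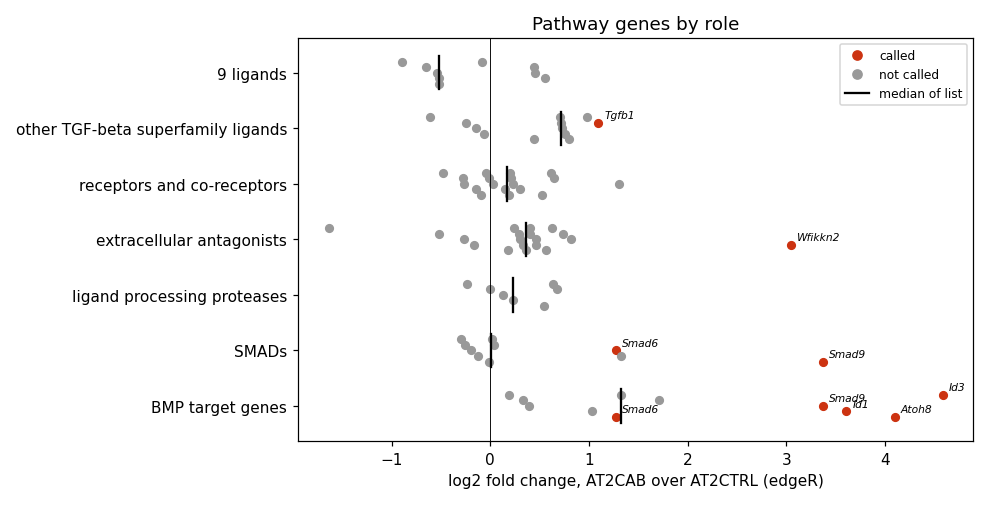
Log2 fold change (AT2CAB over AT2CTRL, edgeR) of every tested gene of the ligands and of 6 lists of other pathway genes, by role. Red points are called genes, grey points are not called, and black ticks are list medians. The median is -0.52 for the 9 ligands and 1.33 for the BMP targets, and a few genes, such as *Smad6* and *Smad9*, stand in 2 lists.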

How the data were processed

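The authors deposited raw gene counts, without normalization, from paired reads trimmed with Trimmomatic, aligned to mm10 with HISAT2, cleared of duplicates with SAMtools and counted with featureCounts 1.5.3. Counting ignored strand, and reads falling on more than 1 gene were left out. The methods state that fragments were counted. Between 56.9% and 60.8% of the counts from 1 to 20 were even, so mates may have been counted singly, which overstates the precision of low counts. Labels and methods name different RNA kits.

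Groups were compared by edgeR's quasi-likelihood test (version 4.0.16, R 4.3.3) after TMM scaling and filterByExpr (minimum count 10), with Benjamini-Hochberg adjustment over 16723 genes. The standard error is the log2 fold change divided by the square root of F. RPKM used the deposited exon length. DESeq2 1.42.0, the tool of the study, and limma-voom 3.58.1 were alternatives, beside other scalings and filters, age, Y-linked reads, the replicate block and each library left out. Scripts were tested on simulated counts with 200 changed genes. The labels name mice only by replicate number, and n counts libraries. Floors cover counting error only.

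Named were all 9 ligands, called genes of the lists, a set of receptors and antagonists, *Tgfb1*, *Id1*, and for each of the 3 ligands of highest RPKM the 3 genes most correlated with it. One gene that this rule names is not reported here. The ligands, lists, tests and rules were chosen with earlier results of these data known. Promoters were matched by symbol in a RefSeq table for 6 of 9 ligands (not for *Bmp2*, *Bmp3* and *Bmp7*).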

Additional observations from a re-analysis of the deposited data

How the results depend on the processing

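Of 171 ligand values under 19 alternatives each, 4 changed direction, 3 came to pass the p threshold and 2 had no adjusted p (DESeq2 for *Bmp7* and *Inhba*). *Bmp3* came to -0.91 with Y-linked reads as a covariate and -0.83 in the 4 libraries without them, and *Bmp5* to -0.56 with the covariate, each then with an edgeR adjusted p under 0.05. *Inhba* turned to -0.0055 without AT2CAB replicate 3, and *Gdf15* to 0.048 with library size only, 0.10 without AT2CTRL replicate 1 and 0.18 without AT2CAB replicate 2. With 1 library left out in turn, log2 fold changes ranged from -1.14 to -0.60 for *Bmp3*, from -0.63 to -0.35 for *Bmp4* and from 0.26 to 0.96 for *Bmp6*, from -0.69 to -0.23 for *Bmp2*, from -0.76 to -0.19 for *Bmp5*, from -0.97 to -0.25 for *Inhbb* and from 0.33 to 0.66 for *Bmp7*, and those of the reversed *Inhba* and *Gdf15* from -0.0055 to 1.24 and from -0.45 to 0.18. Over all genes, the 38 calls higher became 119 with DESeq2, 25 with limma-voom, 108 with the Y-linked covariate, and between 6 and 59 with 1 library left out. The 2 calls lower became 25 with DESeq2, 34 with the Y-linked covariate, 8 in the 4 libraries, 5 with no filter, 1 each with limma-voom, upper-quartile scaling, library size only and age as a covariate, 0 in the 12-week-old mice, and from 0 to 4 with 1 library left out. The 7 calls among pathway genes became 11 with DESeq2 and from 2 to 8 with 1 library left out. The cause was not tested. The log2 fold change of the median gene was 0.12 with library size only and 0.064 with upper-quartile scaling, so values under these are shifted upward by about that much. The replicate numbers gave no sign of pairing the mice: deviations of same-numbered libraries correlated at -0.29, 0.23 and -0.54. Matched instead by age and Y-linked reads, AT2CTRL replicates 1, 2 and 3 go with AT2CAB replicates 3, 1 and 2. Deviations of these matches correlated at 0.61, 0.14 and 0.49, and no fit used them as a block. Under a replicate block, 36 genes were called higher and 5 lower, 29 of the 40 calls were shared, 7 pathway genes were called, and no ligand was, with -0.92 for *Bmp3* and -0.54 for *Bmp4*. DESeq2 adjusted p was 0.163 for *Bmp3* and 0.192 for *Bmp4*. The lowest library had 16 counts of *Bmp7* and 12 of *Inhba*, and with halved counts their standard errors were 0.45 and 0.68, against 0.47 and 0.68.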
